A study of Rattus norvegicus with 12 samples.

Results

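Cholesterol uptake, efflux and synthesis control in rat intestine is described here through 8 genes, namely Npc1l1, Abcg5, Abcg8, Scarb1, Hmgcs1, Sqle, Srebf2 and Insig1. They were taken by gene symbol from a count table of 18749 genes, and all 8 were among the 15704 genes with enough counts to be tested. The table covers 12 libraries of polyadenylated RNA, in 3 groups of 4, from a series on adaptation of the small intestine to removal of the whole colon. All samples are labelled as intestine of WT rats in batch 1, and the labels give no age, sex, strain or intestinal segment. The group postSTC is labelled postoperative and holds replicates 1, 2, 5 and 7. The group preSTC is labelled preoperative, and the group preCTC was collected ahead of sham surgery. Each of these holds replicates 1, 5, 7 and 9. STC and CTC are not spelled out in the labels. A library is named here by its group and replicate number, as in postSTC1. Samples from after sham surgery were not analysed here, so the operation and elapsed time cannot be told apart. Nothing says that replicates are separate animals, so the p-values cover only the variation among these samples, and that variation could be technical.

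Enterocytes take up cholesterol from the gut lumen through NPC1L1, and the ABCG5 and ABCG8 half-transporters, which work as a pair, send sterols back into the lumen. Cells also make cholesterol, through a chain of enzymes that starts from acetyl-CoA. When sterols in the endoplasmic reticulum are low, SCAP escorts the membrane-bound transcription factor SREBP-2 to the Golgi, where proteases release it to switch on the synthesis enzymes. INSIG proteins hold SCAP back when sterols are plentiful, and oxysterols activate LXR, which switches on sterol efflux.

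Libraries held 30095656 to 39374682 counts. Levels are CPM, read counts relative to library sizes scaled by the TMM method. The labelled tissue was checked against marker lists. The 8 pan-epithelial genes summed to 5600–10700 CPM in postSTC, 9250–11800 in preSTC and 8980–11800 in preCTC. Genes of distal small-intestine enterocytes differed far more, at 3010–7350, 9130–10200 and 447–526 CPM. Fabp6, the ileal bile acid-binding protein, was at only 3.77–6.43 CPM in preCTC, against 1409–3797 in postSTC and 3570–4501 in preSTC. Colon genes summed to 219–637 CPM in postSTC, 45.4–71.9 in preSTC and 1590–3590 in preCTC, so the preoperative groups differed in these regional markers. Smooth muscle genes summed to 5590–8320, 3140–4830 and 10100–17000 CPM. In bulk tissue, fewer cells of a type and less RNA per cell cannot be told apart. Of the single libraries, postSTC7 carried 42.1% of its counts in 9 seminal vesicle and prostate genes and had a TMM factor of 0.568, against 0.97–1.15 elsewhere. PostSTC1 held the genes of lactase, Lct, at 243 CPM and of apolipoprotein A-IV, Apoa4, at 2966 CPM, with 7.22 and 186 CPM as the highest values of the other 11 libraries. PreCTC5 had 1.45 CPM of the distal bowel gene Hoxb13 and 3108 CPM of Car1, against 315–445 and 226–494 CPM in the other preCTC libraries. Results that rest on these 3 libraries are given with and without them.

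After the operation, Scarb1 was the only one of the 8 genes whose level passed the test against preSTC, and it rose 2.30-fold. The synthesis genes Hmgcs1 and Sqle had lower means in postSTC without passing. Between the preoperative groups, 5 of the 8 genes were higher in preSTC, and Npc1l1, Abcg5 and Abcg8 were near 0 in preCTC. Npc1l1, Abcg5, Abcg8 and Scarb1 were also higher in postSTC than in preCTC. The 1 gene called in postSTC against preSTC stands beside 18% of all tested genes called in that comparison, where 11.1% were higher. The 5 higher genes in preSTC against preCTC stand beside 38.7% called, with 19.1% higher, and the 4 in postSTC against preCTC beside 16.6%, with 9.27% higher. Calls are at a Benjamini-Hochberg adjusted p under 0.05 over all tested genes in edgeR's quasi-likelihood test. In postSTC against preSTC, 4 of the 8 had an unadjusted p under 0.05, where 33.6% of all tested genes had one, and DESeq2 called 3, Scarb1 higher and Hmgcs1 and Sqle lower, where it called 25.1% of all genes, 14.8% higher and 10.2% lower. The share of tested genes called lower was 6.9%, 19.6% and 7.37% in the same order of comparisons, and none of the 8 was. By range alone, 2 of the 8 did not overlap in postSTC against preSTC, Scarb1 above and Hmgcs1 below, where 22.1% of all tested genes did not overlap, 11.9% above and 10.2% below. In preSTC against preCTC 6 of the 8 lay above, where 45% of tested genes did not overlap, 22.5% above and 22.5% below. In postSTC against preCTC 4 lay above, where 18.1% did not overlap, 9.54% above and 8.6% below.

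**Figure D1:**
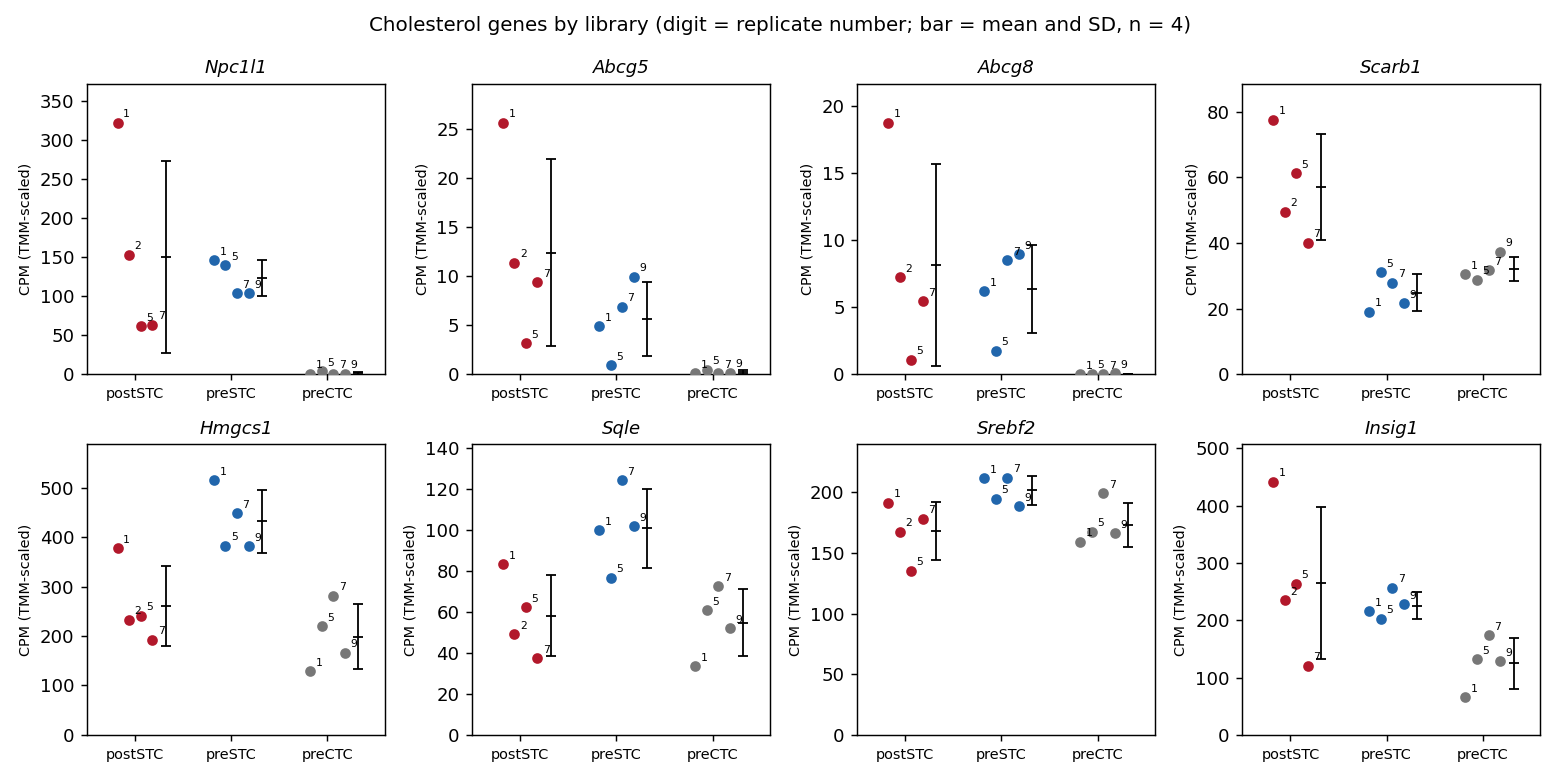
Level of the 8 genes in each library, in TMM-scaled CPM on linear axes that start at 0, for postSTC, preSTC and preCTC. Each point is a library marked with its replicate number, and the bar is the mean with its SD over 4 libraries. Npc1l1, Abcg5 and Abcg8 sit near 0 in preCTC, and the 4 postSTC points of Scarb1 lie above all preSTC points.

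Per length of transcript, the order of the genes differed between the groups. In postSTC, Insig1 averaged 71.0 ± 35.5 CPM per kilobase and Hmgcs1 64.8 ± 20 (SD, n = 4), and among the first 6 genes each overlapped with its neighbour. Npc1l1 followed at 33.6, Srebf2 at 30.1, Sqle at 26.0 and Scarb1 at 22.9, and the efflux genes came last, Abcg5 at 5.01 and Abcg8 at 1.69 CPM per kilobase. In preSTC, Hmgcs1 led at 107 ± 15.8 CPM per kilobase (SD, n = 4), above the range of Insig1 at 60.4 ± 6.20. Sqle at 45.1 and Srebf2 at 36.1 overlapped, and Npc1l1 at 27.6 and Scarb1 at 9.99 CPM per kilobase each stood apart from their neighbours, while Abcg5 at 2.28 and Abcg8 at 1.32 overlapped. In preCTC, Hmgcs1, Insig1, Srebf2 and Sqle lay between 49.4 and 24.5 CPM per kilobase with overlapping neighbours, Scarb1 was at 12.9, and Npc1l1, Abcg5 and Abcg8 were at 0.281, 0.0792 and 0.00381.

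Npc1l1, the uptake transporter of the brush border and target of ezetimibe, was among the most variable of the 8 genes after the operation. It stood at 323, 153, 61.2 and 63.5 CPM in postSTC replicates 1, 2, 5 and 7, against 146, 139, 104 and 104 CPM in preSTC replicates 1, 5, 7 and 9. The postSTC libraries thus lay on both sides of all preSTC libraries, with postSTC1 and postSTC2 above and the others below. This gave a log2 fold change of 0.29 ± 0.69 (SE), with a 95% interval of -1.22 to 1.79 (edgeR adjusted p = 0.806). The sign turned to -0.41 without postSTC1 for Npc1l1, postSTC against preSTC. By replicate number, the log2 ratio of postSTC to preSTC was 1.14 for replicate 1, -1.19 for replicate 5 and -0.71 for replicate 7. In preCTC the gene was at 0.366, 3.90, 0.463 and 0.289 CPM in replicates 1, 5, 7 and 9, so preCTC5 was well above the rest of its group and far below every library of the other groups. Npc1l1 was higher on the log2 scale by 6.61 ± 0.91 in preSTC against preCTC (edgeR SE, adjusted p = 0.000194) and by 6.90 ± 0.92 in postSTC against preCTC (adjusted p = 0.000477). Without preCTC5 these became 8.36 for Npc1l1, preSTC against preCTC, and 8.65 for Npc1l1, postSTC against preCTC. Summed over each group, the 19925 counts in postSTC and 17948 in preSTC were 121 times (95% exact counting interval 105–140) and 98.4 times (85.5–114) the level given by 198 counts in preCTC. These intervals cover counting error only. Of the other pathway genes, Mttp and Soat2 were also near 0 in preCTC. Mttp, which loads lipid onto apolipoprotein B, was at 202–713 CPM in postSTC and 486–704 in preSTC, against 0.608–1.31 in preCTC. Soat2, which esterifies cholesterol for export, was at 31.3–106 CPM in postSTC and 77.2–124 in preSTC, against 0.309–1.15 in preCTC. Cd36, a fatty acid and lipoprotein scavenger receptor, was not, at 3.76–18.7 CPM in postSTC and 1.77–5.88 in preSTC, against 3.19–6.02 in preCTC. The distal small-intestine and colon lists above moved with these contrasts, and their part in the result was not tested.

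Abcg5 and Abcg8, the efflux pair, lie head to head on chromosome 6, with 205 bases between their RefSeq transcription starts in build GRCr8. The window from 250 bases before to 50 after the start of Abcg5 shares 295 of its 300 bases with that of Abcg8, read from the other strand. It is shown because the genes share it. It lies at chr6:15717686-15717985 on the plus strand and is printed 5′ to 3′, with the CCAAT box, a binding sequence of NF-Y, in capitals (as ATTGG, read from the other strand).

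Abcg5: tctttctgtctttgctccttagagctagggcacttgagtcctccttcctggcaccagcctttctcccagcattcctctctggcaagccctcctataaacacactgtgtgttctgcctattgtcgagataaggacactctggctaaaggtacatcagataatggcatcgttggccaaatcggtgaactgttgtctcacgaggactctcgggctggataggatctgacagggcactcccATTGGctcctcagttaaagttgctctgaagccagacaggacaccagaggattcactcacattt

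That box is the only match in the window to the 3 motifs searched on both strands, which were TCACNCCAC (a sterol regulatory element), CCAAT and GGGCGG (an Sp1 box). Of 33465 rat promoters of the same length, 37.5% hold CCAAT, 33.1% hold GGGCGG and 1.12% hold TCACNCCAC. A match describes letters, not binding.

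Abcg5 was at 25.6, 11.3, 3.14 and 9.36 CPM in postSTC replicates 1, 2, 5 and 7, against 4.86, 0.906, 6.86 and 9.95 CPM in preSTC replicates 1, 5, 7 and 9. PostSTC1 and postSTC2 were above all preSTC libraries, and the others lay inside their range. The log2 fold change was 1.13 ± 0.71 (SE, 95% interval -0.41 to 2.67, edgeR adjusted p = 0.288), and all 3 shared replicate numbers gave a positive ratio, at 2.40, 1.79 and 0.45 on the log2 scale. For Abcg5, postSTC against preSTC was 0.49 without postSTC1. Abcg8 was at 18.8, 7.25, 1.06 and 5.46 CPM in the postSTC libraries, against 6.20, 1.76, 8.51 and 8.94 CPM in preSTC. Only postSTC1 was above the preSTC range, and the log2 fold change was 0.36 ± 0.70 (SE, 95% interval -1.16 to 1.87, edgeR adjusted p = 0.756). It turned to -0.47 without postSTC1 for Abcg8, postSTC against preSTC. In preCTC, Abcg5 had 3, 18, 4 and 6 counts and Abcg8 had 0, 1, 0 and 2 counts in replicates 1, 5, 7 and 9, below every library of the other groups. Abcg5 was higher by 4.82 ± 0.88 on the log2 scale in preSTC than in preCTC (edgeR SE, adjusted p = 0.00125) and by 5.96 ± 0.91 in postSTC (adjusted p = 0.00108). Without preCTC5 the value was 5.65 for Abcg5, preSTC against preCTC, and 6.78 for Abcg5, postSTC against preCTC. For Abcg8, the 1037 counts in postSTC and 915 in preSTC were 416 times (95% exact counting interval 142–2020) and 331 times (113–1610) the level of the 3 counts in preCTC (edgeR adjusted p = 0.00049 and 0.000209).

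The balance between the 2 half-transporter transcripts differed after the operation. The ratio of Abcg8 to Abcg5 counts was 0.733, 0.639, 0.339 and 0.584 in postSTC replicates 1, 2, 5 and 7, against 1.28, 1.94, 1.24 and 0.899 in preSTC replicates 1, 5, 7 and 9. All 4 postSTC ratios were below all 4 preSTC ratios. This ratio does not depend on library size or scaling. Its mean log2 was -0.86 ± 0.49 in postSTC and 0.37 ± 0.46 in preSTC (SD, n = 4 each), a difference of -1.22 (two-sided exact permutation p = 0.0286, the smallest that 70 splits can give). It was the only one of 3 comparisons that could be tested, because preCTC held too few counts for a ratio. Without postSTC5 the difference was -0.99 (exact permutation p = 0.0571). The smallest p possible there, with 35 splits of 3 against 4 libraries, is 0.0286. The pairs of replicates 1, 5 and 7 differed by -0.80, -2.52 and -1.09, for which the exact permutation p of 0.25 is the smallest possible. PreSTC5 had the fewest counts behind its ratio, 68 of Abcg8 and 35 of Abcg5, and postSTC5 had 40 and 118.

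**Figure D2:**
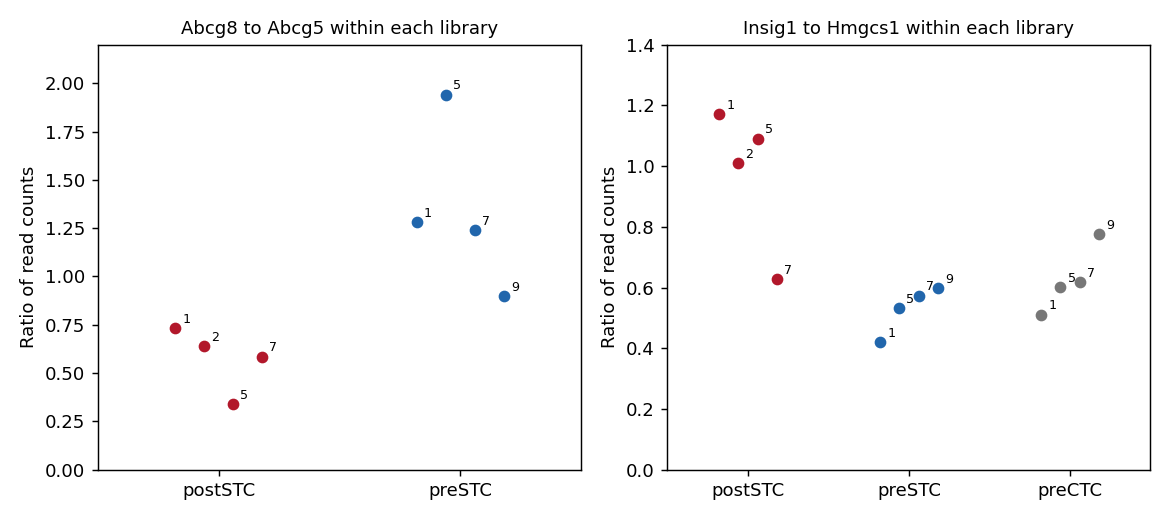
Ratio of read counts within each library for Abcg8 over Abcg5 (left, postSTC and preSTC) and Insig1 over Hmgcs1 (right, postSTC, preSTC and preCTC), on linear axes that start at 0. Each point is a library marked with its replicate number. The Abcg8 to Abcg5 ratio is at most 0.733 in every postSTC library and 0.899 or more in every preSTC library, while postSTC7 separates from the other postSTC libraries in the Insig1 to Hmgcs1 ratio.

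Scarb1 encodes SR-BI, a receptor that exchanges cholesterol with HDL and is also present on enterocytes. It was at 77.6, 49.5, 61.3 and 40.0 CPM in postSTC replicates 1, 2, 5 and 7, against 19.0, 31.0, 27.9 and 21.6 CPM in preSTC replicates 1, 5, 7 and 9. The preCTC libraries stood at 30.5, 28.7, 31.6 and 37.3 CPM in replicates 1, 5, 7 and 9. Every postSTC library was thus above every library of both preoperative groups, and the preoperative groups overlapped. Scarb1 averaged 57.1 ± 16.2 CPM in postSTC and 24.9 ± 5.55 CPM in preSTC (SD, n = 4 each), a log2 fold change of 1.20 ± 0.21 (SE, 95% interval 0.75 to 1.65, edgeR adjusted p = 0.00351). Against preCTC it was higher by 0.83 ± 0.21 in postSTC (edgeR adjusted p = 0.0173), while preSTC against preCTC gave -0.36 ± 0.21 (95% interval -0.81 to 0.08, adjusted p = 0.182). The rise over preSTC was present in each shared replicate number, at 2.03, 0.98 and 0.52 on the log2 scale for replicates 1, 5 and 7. It was called whichever single library was left out (adjusted p 0.00143 to 0.016) and was 1.34 for Scarb1, postSTC against preSTC, without postSTC7 and preCTC5 (adjusted p = 0.00167). With the replicate number as a block, its edgeR adjusted p was 0.0271 when all 12 libraries were fitted and 0.142 with the 8 of postSTC and preSTC alone, and with limma on the deposited FPKM it was 0.0904 and 0.0986 at pseudocounts of 0.1 and 1. SR-BI is also abundant in steroid-making tissue and fat, so 5 adipocyte genes were set beside it. They summed to 716, 822, 1990 and 41.3 CPM in the postSTC libraries, against 347, 57.7, 284 and 86.1 in preSTC and 344, 243, 270 and 527 in preCTC. Macrophage genes summed to 161–383 CPM in postSTC, 189–242 in preSTC and 218–326 in preCTC, and the smooth muscle sums are given above. Of the 5 adipocyte genes 2, and of the 5 macrophage genes 1, were called higher in postSTC than in preSTC, where 11.1% of all tested genes were. All 5 adipocyte genes and 3 of the 5 macrophage genes had a log2 fold change above 0. Csf1r at -0.06 and Msr1 at -0.13 did not. The part of these lists in the Scarb1 result was not tested.

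**Figure D3:**
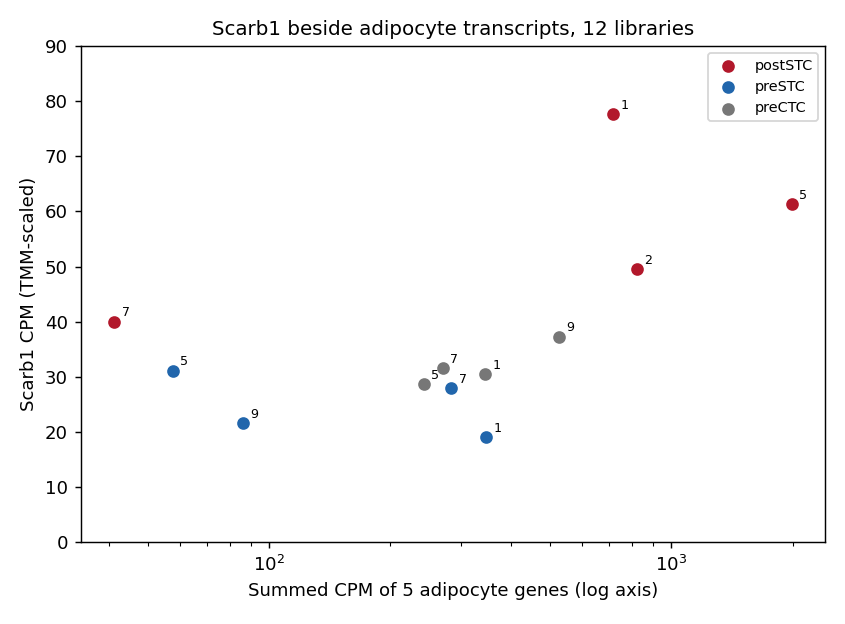
Scarb1 level in TMM-scaled CPM (linear axis from 0) against the summed CPM of 5 adipocyte genes (log axis) in the 12 libraries, marked by group and replicate number. The 4 postSTC libraries span 41.3–1990 CPM of adipocyte genes and 40.0–77.6 CPM of Scarb1, and the 8 preoperative libraries 57.7–527 and 19.0–37.3 CPM.

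Hmgcs1 makes HMG-CoA, an early intermediate of the pathway, and Sqle makes squalene epoxide, the first oxygen-requiring step. Hmgcs1 was at 378, 233, 241 and 192 CPM in postSTC replicates 1, 2, 5 and 7, against 515, 382, 449 and 381 CPM in preSTC replicates 1, 5, 7 and 9. Every postSTC library was below every preSTC library, by a small margin for postSTC1. The log2 fold change of -0.73 ± 0.25 (SE, 95% interval -1.28 to -0.17) did not pass the test (edgeR adjusted p = 0.0665). Sqle was at 83.5, 49.2, 62.4 and 37.4 CPM in postSTC, against 100, 76.8, 124 and 102 CPM in preSTC. Only postSTC1 reached into the preSTC range, and the log2 fold change was -0.79 ± 0.27 (SE, 95% interval -1.38 to -0.21, edgeR adjusted p = 0.059). With scaling to the pan-epithelial genes the values were -0.39 for Hmgcs1, postSTC against preSTC, and -0.45 for Sqle, postSTC against preSTC (adjusted p = 0.174 and 0.137). Without postSTC1, the library with the proximal gut transcripts, both passed, at -0.96 and -1.02 (edgeR adjusted p = 0.0167 and 0.0192). Without postSTC7 neither passed. When libraries were left out, Hmgcs1 ran from -0.96 to -0.60 (edgeR adjusted p up to 0.161) and Sqle from -1.02 to -0.63 (up to 0.15). In all 3 shared replicate numbers both genes were lower in postSTC, by -0.45, -0.67 and -1.22 for Hmgcs1 and by -0.26, -0.30 and -1.73 for Sqle on the log2 scale. In preCTC, Hmgcs1 was at 128, 220, 281 and 166 CPM and Sqle at 33.6, 61.0, 72.6 and 52.2 CPM in replicates 1, 5, 7 and 9, below all preSTC libraries. Hmgcs1 was 2.17-fold higher in preSTC than in preCTC (log2 1.12 ± 0.25, SE, edgeR adjusted p = 0.0049) and Sqle 1.84-fold (log2 0.88 ± 0.27, adjusted p = 0.0218). The Sqle call was lost without preSTC7, preCTC1 or preCTC9 (adjusted p = 0.0643, 0.0549 and 0.054). In postSTC against preCTC, the log2 fold changes were 0.39 (95% interval -0.16 to 0.94) for Hmgcs1 and 0.09 (-0.49 to 0.66) for Sqle, with overlapping libraries (edgeR adjusted p = 0.324 and 0.863).

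The other enzymes of the chain were read for the same pattern. Of 18 synthesis enzymes, Hmgcs1 and Sqle included, 17 had a lower mean in postSTC than in preSTC, with log2 fold changes of -0.79 to 0.09 and a median of -0.44, where all tested genes had a median of 0.04. A log2 fold change above 0 was found for 8499 of the 15704 tested genes. The 8 pan-epithelial genes had a median of -0.38 and the 8 genes of distal small-intestine enterocytes one of -1.03 in the same comparison, and their part in the enzyme values was not tested. EdgeR called 0 of the 18, while 10 had an unadjusted p under 0.05 and DESeq2 called 6, all lower. Of all tested genes, edgeR called 11.1% higher and 6.9% lower, and 33.6% had an unadjusted p under 0.05. DESeq2 called 14.8% higher and 10.2% lower. The number with an unadjusted p under 0.05 was 1 and 4 with the replicate block in 12 and 8 libraries, and 2 with scaling to the pan-epithelial genes. Without postSTC1, edgeR called 10, all lower, where it called 23.2% of all genes, 13.9% higher and 9.25% lower. Without postSTC7 it called 0 of the 18, and 6 had an unadjusted p under 0.05. For 3 of the 18, Hmgcs1, Idi1 and Fdps, every postSTC library was below every preSTC library, where 10.2% of all tested genes lay below and 11.9% above. Idi1, which isomerises isopentenyl diphosphate, was at 94.8, 60.8, 76.9 and 54.3 CPM in postSTC, against 115, 104, 148 and 111 CPM in preSTC, and its log2 fold change was -0.74 ± 0.27 (edgeR SE, adjusted p = 0.0795). Fdps, which makes farnesyl diphosphate, was at 278, 181, 187 and 185 CPM in postSTC, against 321, 282, 414 and 326 CPM in preSTC, with -0.69 ± 0.23 on the log2 scale (edgeR SE, adjusted p = 0.0539). Both were picked for these ranges after the values were seen. Within postSTC, postSTC1 was the highest library for 18 of the 18 enzymes and postSTC7 the lowest for 16. Replicate 7 gave a lower postSTC value for 18 enzymes, replicate 5 for 16 and replicate 1 for 9. The pan-epithelial sum was 10700 CPM in postSTC1 and 5600 in postSTC7, the highest and lowest of that group, and its part in this order was not tested.

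Between the preoperative groups, 13 of the 18 enzymes were called higher in preSTC and 0 lower, where 19.1% of all tested genes were higher and 19.6% lower. A higher mean was found for 16, with a median log2 fold change of 0.80 (all tested genes -0.02, with 7625 of 15704 above 0). The 13 became 8 without preCTC1 or without preCTC9, and 8 with FPKM at either pseudocount. Among all tested genes, the 2995 called higher became 2467, 2483, 1123 and 1126 in the same order. Tm7sf2, a sterol reductase, was higher by 1.39 ± 0.25 and Msmo1, which demethylates sterols, by 1.31 ± 0.30 (edgeR SE, adjusted p = 0.00121 and 0.00517). Both comparisons use the preSTC libraries, so they are not independent. In postSTC against preCTC, 2 of the 18 enzymes were called, Tm7sf2 and Sc5d, both higher, and the median log2 fold change was 0.26. Of all tested genes, 9.27% were called higher and 7.37% lower. With scaling to the pan-epithelial genes 8 were called, all higher, where 2747 of the 15704 tested genes were higher and 379 lower. With FPKM 0 were called, where 1569 and 1668 of all tested genes were, at pseudocounts of 0.1 and 1. With the replicate block in 8 libraries 0 were called, where 151 of 15410 genes were. In edgeR with TMM scaling and no block, 4 of the 18 had an unadjusted p under 0.05, where 4844 of all tested genes had one. The mean of postSTC lay between those of preSTC and preCTC for 14 of the 18. How many of all tested genes had such a mean was not counted, so no trait of these enzymes is read from it.

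**Figure D4:**
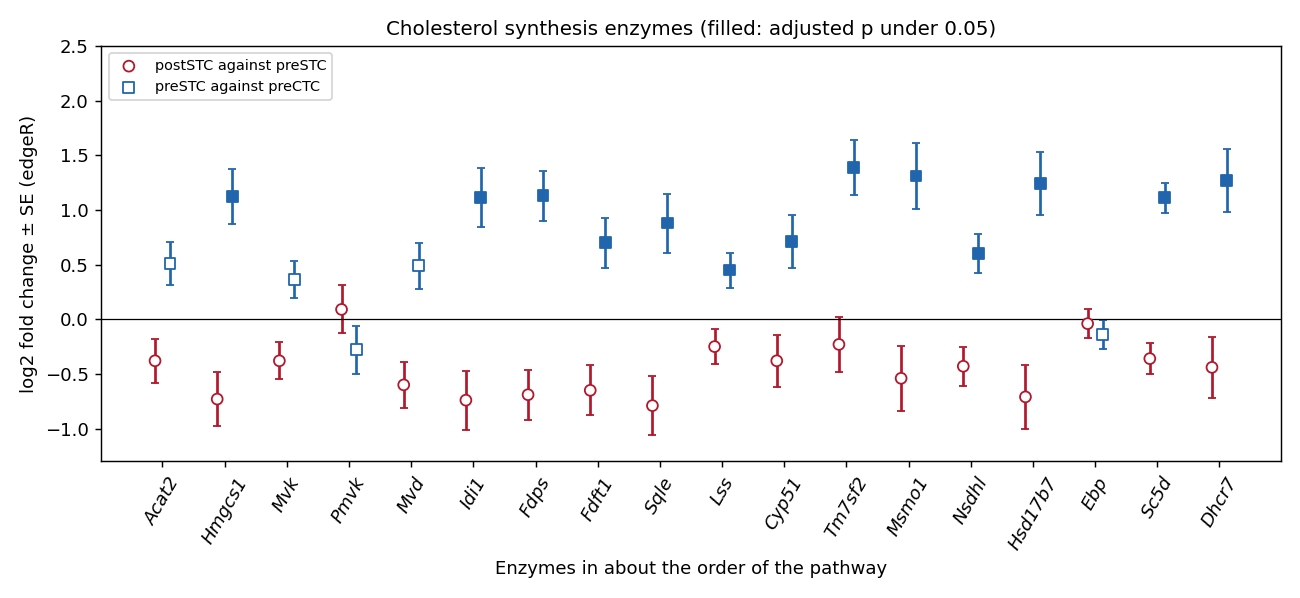
Log2 fold change with SE from edgeR for 18 cholesterol synthesis enzymes, placed in about the order of the pathway, for postSTC against preSTC (circles) and preSTC against preCTC (squares). Filled symbols passed an adjusted p of 0.05, and no circle is filled. The circles lie at or below 0 apart from Pmvk at 0.09, the squares are above 0 apart from Pmvk and Ebp, and the comparisons share the preSTC libraries.

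Srebf2 encodes SREBP-2, the transcription factor that drives these enzymes and also its own gene, and Insig1 encodes the sterol-sensitive anchor of SCAP and is itself a target of SREBP. Their promoter windows and that of Hmgcs1 are shown because they are 3 of the genes on which this control acts. In the order Hmgcs1, Srebf2 and Insig1, they lie at chr2:53382054-53382353 on the plus strand, chr7:115543057-115543356 on the plus strand and chr4:8057720-8058019 on the minus strand of GRCr8, from RefSeq, and are printed 5′ to 3′ on the strand of the gene. Capitals mark CCAAT boxes, the Sp1 box GGGCGG and, with 1 mismatch allowed, TCACNCCAC, on either strand.

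Hmgcs1: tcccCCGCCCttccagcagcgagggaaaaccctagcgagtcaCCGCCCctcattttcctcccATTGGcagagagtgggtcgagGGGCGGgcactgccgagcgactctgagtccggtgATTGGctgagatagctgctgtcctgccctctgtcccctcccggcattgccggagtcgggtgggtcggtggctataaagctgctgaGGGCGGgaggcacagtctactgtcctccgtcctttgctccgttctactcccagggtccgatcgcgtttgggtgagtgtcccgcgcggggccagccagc

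Srebf2: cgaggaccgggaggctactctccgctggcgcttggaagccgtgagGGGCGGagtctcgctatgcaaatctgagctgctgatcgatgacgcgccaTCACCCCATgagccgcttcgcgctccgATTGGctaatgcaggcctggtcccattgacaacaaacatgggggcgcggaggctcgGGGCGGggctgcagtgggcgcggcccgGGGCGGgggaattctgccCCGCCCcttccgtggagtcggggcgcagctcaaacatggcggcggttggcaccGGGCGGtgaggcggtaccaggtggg

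Insig1: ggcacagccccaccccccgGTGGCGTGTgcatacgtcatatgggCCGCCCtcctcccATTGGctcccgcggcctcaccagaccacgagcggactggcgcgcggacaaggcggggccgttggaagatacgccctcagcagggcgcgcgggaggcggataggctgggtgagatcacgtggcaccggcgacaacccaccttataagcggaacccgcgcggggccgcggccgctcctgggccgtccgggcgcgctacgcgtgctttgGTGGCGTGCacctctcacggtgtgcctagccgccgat

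None of the 6 windows available, which are those of Npc1l1, Abcg5, Abcg8, Hmgcs1, Srebf2 and Insig1, held TCACNCCAC without a mismatch. A search with 1 mismatch, added after the sequences were seen, found TCACCCCAT in Srebf2 and 2 matches in Insig1, and 23.7% of all promoters hold such a match. CCAAT was present in all 6 windows, where 37.5% of all promoters hold it. The windows of Abcg5 and Abcg8 share 295 of their 300 bases, so the same box is counted for both. GGGCGG occurred 4 times in Hmgcs1, 5 times in Srebf2 and 1 time in Insig1, and not in the windows of Npc1l1, Abcg5 and Abcg8. Of all promoters, 33.1% hold it. A missing match says only that those letters are absent from these 300 bases.

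Srebf2 was the steadiest of the 8 genes. It was at 192, 167, 135 and 178 CPM in postSTC replicates 1, 2, 5 and 7, against 212, 194, 212 and 188 CPM in preSTC replicates 1, 5, 7 and 9, and at 159, 167, 199 and 166 CPM in preCTC. The groups overlapped in all 3 comparisons. Srebf2 had a log2 fold change of -0.26 ± 0.12 in postSTC against preSTC (SE, 95% interval -0.52 to -0.01, edgeR adjusted p = 0.139). It was 0.22 ± 0.12 in preSTC against preCTC (95% interval -0.03 to 0.48, adjusted p = 0.156) and -0.04 ± 0.12 in postSTC against preCTC (-0.30 to 0.21, adjusted p = 0.847).

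Insig1 was at 442, 235, 264 and 121 CPM in postSTC replicates 1, 2, 5 and 7, against 216, 203, 257 and 228 CPM in preSTC replicates 1, 5, 7 and 9. PostSTC1 was above and postSTC7 below every preSTC library. The log2 fold change was 0.23 ± 0.34 (SE, 95% interval -0.52 to 0.98, edgeR adjusted p = 0.674), and it turned to -0.13 without postSTC1. In preCTC, Insig1 was at 65.6, 132, 173 and 129 CPM in replicates 1, 5, 7 and 9, below all preSTC libraries and overlapping postSTC at postSTC7. In log2 terms, Insig1 differed by 0.85 ± 0.35 in preSTC against preCTC (SE, 95% interval 0.10 to 1.61) and 1.09 ± 0.35 in postSTC against preCTC (0.33 to 1.85), with edgeR adjusted p = 0.0705 and 0.0524. Without postSTC7, both passed, at 0.86 and 1.33 (adjusted p = 0.0232 and 0.0084). When libraries were left out, preSTC against preCTC ran from 0.64 to 1.05 (edgeR adjusted p up to 0.162). PostSTC against preCTC ran from 0.72 to 1.34 (up to 0.135). Insig1 and Hmgcs1, both SREBP targets, did not keep a fixed ratio. The ratio of Insig1 to Hmgcs1 counts was 1.17, 1.01, 1.09 and 0.628 in postSTC replicates 1, 2, 5 and 7. It was 0.419, 0.531, 0.573 and 0.598 in preSTC, and 0.510, 0.601, 0.617 and 0.776 in preCTC replicates 1, 5, 7 and 9. All postSTC ratios were above all preSTC ratios, and postSTC7 lay inside the preCTC range. This ratio was chosen after the values were seen and is given without a test.

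**Figure D5:**
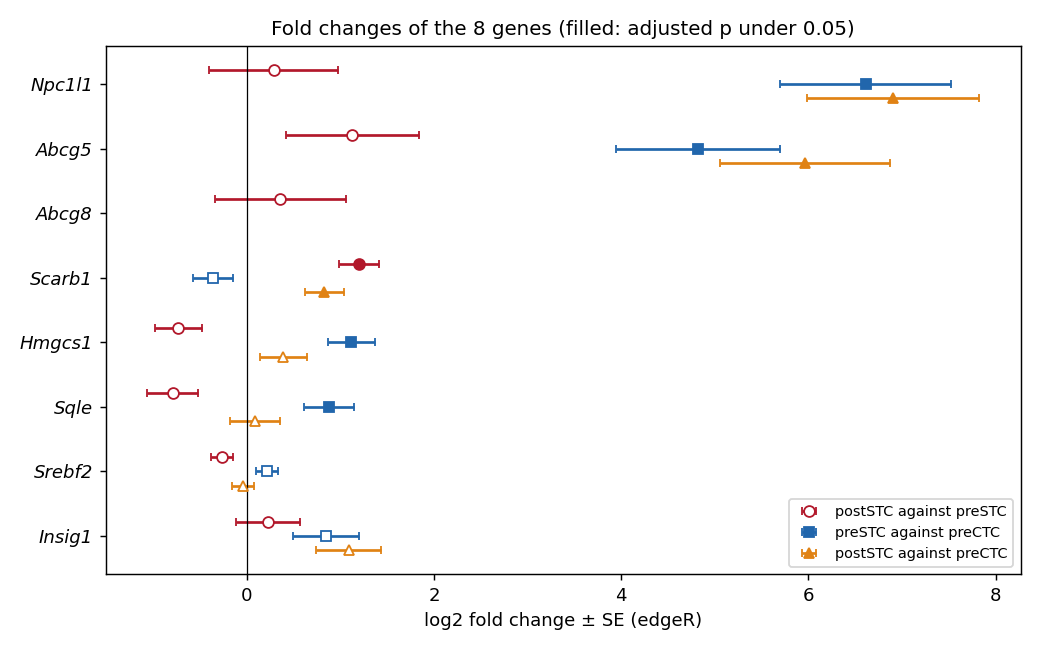
Log2 fold change with SE from edgeR of the 8 genes for postSTC against preSTC (circles), preSTC against preCTC (squares) and postSTC against preCTC (triangles). Filled symbols passed an adjusted p of 0.05. Abcg8 is shown for postSTC against preSTC alone, since preCTC held 3 counts of it in all, and Scarb1 at 1.20 is the only filled circle.

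A further 51 genes of cholesterol handling, besides the 8, were examined. In postSTC against preSTC, 2 were called higher and 0 lower, with a median log2 fold change of -0.08. Of all tested genes, 11.1% were called higher and 6.9% lower. Cd36 was higher by 1.74 ± 0.47 (edgeR SE, adjusted p = 0.0251), at 12.2, 11.2, 18.7 and 3.76 CPM in postSTC, against 5.88, 2.46, 3.62 and 1.77 CPM in preSTC. CD36 is also an adipocyte and macrophage gene, and postSTC7, with the least adipocyte RNA, had the lowest postSTC value. The part of these cell types in the Cd36 result was not tested. Npc2, which hands cholesterol to NPC1 in the lysosome, was higher by 1.15 ± 0.35 (edgeR SE, adjusted p = 0.0418), with 549 CPM in postSTC7 and 137–190 CPM in the other postSTC libraries, against 117–120 CPM in preSTC. Without postSTC7, which carries the seminal vesicle transcripts, the value was 0.48 for Npc2, postSTC against preSTC, with an adjusted p of 0.00932. Both calls were near the threshold. Leaving out postSTC5, preSTC5, preSTC7 or preSTC9 ended that of Cd36, postSTC against preSTC (up to 0.0713), and any 1 of the 8 preoperative libraries that of Npc2, postSTC against preSTC (up to 0.0943). With the replicate block, 0 of the 51 were called in edgeR, in both the fit of 12 and the fit of 8 libraries, while 16 had an unadjusted p under 0.05 without the block and DESeq2 called 10, 5 higher and 5 lower. The 16 and 10 of 51 stand beside 33.6% and 25.1% of all tested genes. Without postSTC1, 17 were called, 5 higher and 12 lower, beside 23.2% of all genes, 13.9% higher and 9.25% lower.

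Other control genes did not pass in postSTC against preSTC. Scap was at 65.9–71.5 CPM in postSTC and 59.3–65.5 in preSTC, a log2 fold change of 0.12 ± 0.07 (edgeR SE, adjusted p = 0.28). Nr1h3, which encodes LXR alpha, was at 73.6, 68.7, 42.3 and 23.4 CPM in postSTC, against 43.4–54.1 CPM in preSTC (0.14 ± 0.28, adjusted p = 0.77). Abca1, the LXR target that loads cholesterol onto apolipoprotein A-I, was at 23.7–37.3 CPM in postSTC and 14.2–29.9 in preSTC (0.66 ± 0.22, adjusted p = 0.0555), and without preSTC5 it passed, at 0.96 for Abca1, postSTC against preSTC (adjusted p = 0.00623). Soat2 gave -0.62 ± 0.37 and the lysosomal cholesterol exporter Npc1 gave 0.15 ± 0.12 (edgeR SE, adjusted p = 0.26 and 0.421).

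In preSTC against preCTC, 21 of the 51 were higher and 4 lower, with a median log2 fold change of 0.37. These stand beside 19.1% of all tested genes called higher and 19.6% lower. The highest were Apob, Mttp, Soat2 and Apoa1, at 9.18 ± 0.55, 9.05 ± 0.51, 7.10 ± 0.49 and 6.51 ± 1.01 (edgeR SE, adjusted p = 5.43e-07, 2.61e-07, 1.61e-06 and 0.00044), where Apob and Apoa1 encode the main proteins of chylomicrons and HDL. Without preCTC1 the value was 7.38 for Apoa1, preSTC against preCTC. Nr1h3 was higher by 1.32 ± 0.28, the sterol transfer protein gene Gramd1b by 1.13 ± 0.25 and the lysosomal lipase gene Lipa by 0.82 ± 0.24 (edgeR SE, adjusted p = 0.00337, 0.00385 and 0.017). The 4 lower genes were Abca1 (-0.74 ± 0.22), the SREBP protease Mbtps1 (-0.62 ± 0.11), Scap (-0.39 ± 0.07) and the late-endosomal sterol transporter Stard3 (-0.27 ± 0.08), with SE and edgeR adjusted p of 0.00118 to 0.0211. Npc1 gave -0.27 ± 0.12 (adjusted p = 0.109).

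In postSTC against preCTC, 10 of the 51 were higher and 2 lower, with a median log2 fold change of 0.17. These stand beside 9.27% of all tested genes called higher and 7.37% lower. Apob, Mttp, Apoa1 and Soat2 again led, at 9.16, 8.42, 6.96 and 6.48, followed by Nr1h3 at 1.46, Gramd1b at 1.33, Tm7sf2 at 1.16, Lipa at 1.12, Sc5d at 0.76 and Insig2 at 0.61. Stard3 at -0.30 and Scap at -0.28 were the lower genes (edgeR adjusted p of 6.12e-07 to 0.023 for these 12). Apoa1, postSTC against preCTC, was 7.83 without preCTC1 and 6.29 without postSTC1. Abca1 at -0.08 and Npc1 at -0.11 did not pass (edgeR adjusted p = 0.832 and 0.581). The regional marker lists moved with both comparisons to preCTC, and their part in these counts was not tested.

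Genes with the most similar pattern were ranked by the root mean square difference of centred log2 CPM over the 12 libraries, which share depth and scaling, so that a smaller value means a closer pattern. The nearest to Hmgcs1 was Tmem97 (0.142), and the nearest to Sqle were the squalene synthase gene Fdft1 (0.150) and Mms22l (0.161). Npc1l1 was closest to the enterocyte fatty acid-binding protein genes Fabp2 (0.557) and Fabp1 (0.602). Abcg5 was closest to the organic anion pump gene Abcc2 (0.942) and to Abcg8 (0.944), and Abcg8 to Tmem86b (0.775) and Reg4 (0.783), with Abcg5 in place 8. Scarb1 was closest to Cdip1 (0.206) and Ddit3 (0.250), Srebf2 to Atxn2l (0.058) and Ankfy1 (0.075), and Insig1 to Rhod (0.259) and Rtp4 (0.288). These values are descriptions, and the more a gene varies the larger they tend to be.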

How the data were processed

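Per the labels' protocols, TRIzol was used for RNA extraction and a VAHTS Universal kit for library construction. The submitters' processing notes name fastp, HISAT2, HTSeq and the rat build mRatBN7.2, without versions or roles. The series' design text describes another species and pipeline and was not used. The authors deposited raw read counts per gene, 1 column per library, and a table of FPKM values, which were proportional to count over library total within a gene (largest relative deviation 1e-15). The sources used here do not give strandedness or the handling of reads with several matches. In postSTC7, deposited FPKM of all other genes are lowered by the seminal vesicle transcripts, so FPKM entered alternatives only.

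Genes kept by edgeR's filterByExpr (15704 of 18749, 83.8%) were tested in R 4.3.3 with edgeR 4.0.16 (TMM factors, quasi-likelihood F-test, group as the only term, all 12 libraries in 1 fit, biological coefficient of variation 0.322) and Benjamini-Hochberg adjustment over all tested genes. The SE is the absolute log2 fold change over the square root of F, and intervals (95%) use the t distribution. DESeq2 1.42.0, limma 3.58.1 (voom, and trend on log2(FPKM + 0.1) or log2(FPKM + 1)), other scalings, no filter, replicate blocks and leaving out libraries were alternatives. The procedure was also run on simulated counts. These were given less variation between libraries than was estimated here, so that run does not show how the procedure performs on these data. Count ratios to preCTC use summed counts with exact conditional binomial intervals, and these cover counting error only, since PCR copies were not marked by molecular identifiers.

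No replicate looked like a duplicate (chi-square per gene at least 32 for every pair). Deviations from group means of same-numbered postSTC and preSTC libraries correlated at 0.24, 0.16 and 0.17 for numbers 1, 5 and 7. Such values do not establish that a number marks a pair. The labels do not state such a pairing. RefSeq tables of GRCr8 matched 18531 gene identifiers (98.8%) and all 8 members, and gave promoter windows for 6 of them. GRCr8 is not the build of the counts, and its coordinates belong to the windows only. The members, gene lists and tests were chosen with earlier results of these data known. Some genes of the lists are not reported here, and counts of list members are over the others. Besides the 8 genes, pathway genes with an adjusted p under 0.05 were named, up to 10 per direction by fold change, and Scap, Nr1h3, Abca1, Soat2 and Npc1 always. Beside the lists given with the results, pancreatic acinar genes summed to 8.87–21.7 CPM in postSTC, 16.5–20.1 in preSTC and 9.54–19.3 in preCTC, and proximal small-intestine genes to 1060–4890, 2050–2650 and 34.3–54.7 CPM.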

Additional observations from a re-analysis of the deposited data

Results flagged for a closer look

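Within the groups of 4 libraries, 42 sets of values (the 8 genes, the 5 pathway genes always named and the Insig1 to Hmgcs1 ratio) were searched for a library set apart by most of the range, and 3 were found, where chance gives about 1 in 20. Npc1l1 was at 3.90 CPM in preCTC5 and at 0.289–0.463 CPM in the other preCTC libraries, in the library that also had little Hoxb13. Scap was at 89.9 CPM in preCTC1, against 79.9–81.2 CPM in the rest of preCTC. Abca1 was at 29.9 CPM in preSTC5 and 14.2–16.2 CPM in the other preSTC libraries.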

How the results depend on the processing

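Of 576 alternative results for the 8 genes, 520 kept their direction and their side of the threshold, 17 lost a call, 19 gained one and 20 turned sign; of 864 for the named pathway genes, 765, 76, 10 and 13 did so. All sign changes were in results without a call, except where named below, and the cause was not tested. In postSTC against preSTC, the 1 gene called of the 8 became 3 with DESeq2, 0 with a replicate block in the fit of 8 libraries and 0 with FPKM under either pseudocount, and 1 to 3 when single libraries were left out. The 2 pathway genes called became 10 with DESeq2, 10 when scaled to pan-epithelial genes, 0 with either replicate block, 0 with FPKM under either pseudocount, and 0 to 17 when single libraries were left out, where 0 came without preSTC7 or preSTC9, 1 without preCTC5, preCTC7, preCTC9, preSTC1 or preSTC5, 4 without postSTC7 and 17 without postSTC1. With the 8 libraries alone 2 were called, both lower. In preSTC against preCTC, the 25 pathway genes called became 15 and 16 with FPKM at pseudocounts of 0.1 and 1. There the 6077 calls over all tested genes became 3753 and 3824. In postSTC against preCTC, the 4 of 8 became 1 with the replicate block in 8 libraries and 2 with FPKM + 1, and the 12 pathway genes became 20 with pan-epithelial scaling, 4 with that block and 6 with FPKM at each pseudocount. Over all tested genes, the 2612 calls became 3126 with pan-epithelial scaling, 151 with that block, and 1569 and 1668 with FPKM. The log2 difference in the Abcg8 to Abcg5 ratio was -1.47 over the 3 pairs, taking the replicate number as a block, and -1.40 to -0.99 when single libraries were left out.

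For Scarb1, postSTC against preSTC, the log2 fold change was 1.16 (adjusted p = 0.142) with the block in 8 libraries, and 1.05 and 1.00 with FPKM (adjusted p = 0.0904 and 0.0986). For Scarb1, postSTC against preCTC, the block gave 0.89 in 12 libraries and 0.92 in 8 (adjusted p = 0.0823 and 0.193). For Sqle, preSTC against preCTC, the block in 12 libraries gave an adjusted p of 0.0624. The 8-library block also ended the calls of Npc1l1, postSTC against preCTC, and Abcg5, postSTC against preCTC (adjusted p = 0.118 and 0.138), and gave one for Insig1, preSTC against preCTC (0.0118). In preSTC against preCTC, same-numbered libraries correlated at 0.22, -0.03, 0.17 and 0.14 for numbers 1, 5, 7 and 9. Numbers 1, 7 and 9 correlated best with their own, and preSTC5 with preCTC9. PostSTC against preCTC gave 0.22, -0.02 and 0.05 for numbers 1, 5 and 7. Here 1 and 7 correlated best with their own, and postSTC5 with preCTC9. In postSTC against preSTC, numbers 1, 5 and 7 each correlated best with their own. What a shared number stands for was not tested, so these values establish no pairing.

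Sign changes in postSTC against preSTC were these. With voom, Npc1l1 gave -0.04 and Abcg8 -0.06. Pan-epithelial scaling gave 0.13 for Srebf2. With the replicate block in 12 libraries Npc1l1 gave -0.13 and Nr1h3 -0.14, and in 8 libraries -0.29 and -0.17. With FPKM + 0.1 they gave -0.17 and -0.12, Abcg8 -0.08, Insig1 -0.03 and Scap 0 (rounded), and with FPKM + 1 Npc1l1 gave -0.14, Insig1 -0.02, Scap 0 and Nr1h3 -0.09. Without postSTC1, Npc1l1 gave -0.41, Abcg8 -0.47, Insig1 -0.13 and Nr1h3 -0.08, and without postSTC2 Nr1h3 gave -0.03. In postSTC against preCTC, pan-epithelial scaling gave 0.30 for Srebf2, 0.08 for Scap, 0.29 for Abca1, 0.19 for Npc1 and 0.05 for Stard3, of which Scap and Stard3 are called lower in the main result. FPKM + 0.1 gave -0.20 for Sqle, and FPKM + 1 gave -0.19. Without postSTC1, Sqle gave -0.14 and Abca1 0.02. Without preCTC1, Sqle gave -0.09. Srebf2 gave 0.05 without postSTC5 and 0.03 without preCTC7. Over all single libraries left out, the highest values in postSTC against preSTC were 0.55 for Npc1l1, 0.73 for Abcg8, 0.47 for Insig1 and 0.38 for Nr1h3. In postSTC against preCTC, Srebf2 ran from -0.11 to 0.05.

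Over all genes, pan-epithelial scaling moved the median log2 fold change by 0.41 in postSTC against preSTC, with 3665 genes higher and 217 lower, where the main result has 1749 and 1084, and by 0.36 in postSTC against preCTC, with 2747 and 379 in place of 1455 and 1157. FPKM + 0.1 moved it by -0.13, -0.14 and -0.28 in the 3 comparisons. Upper quartile scaling gave 2566 higher and 3452 lower genes in preSTC against preCTC, where the main result has 2995 and 3082, and 1248 and 1464 in postSTC against preCTC. The 2833 genes called in postSTC against preSTC became 1746 and 66 with the replicate block in 12 and 8 libraries, 653 and 521 with FPKM, and 1609, 1855 and 1681 without preSTC1, preSTC5 or preSTC7. The 6077 in preSTC against preCTC became 3753 and 3824 with FPKM. The 2612 in postSTC against preCTC became 1399 and 151 with the block, 1455 when only those 8 libraries were fitted, and 1569 and 1668 with FPKM. Depth limits Abcg5 and Abcg8 in preCTC, with 31 and 3 counts in 4 libraries.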
